A study of Rattus norvegicus with 8 samples.

Results

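The transcripts described are those of the leukocyte-endothelial adhesion molecules and selectins, the surface proteins by which blood leukocytes roll on, hold to and cross the vessel wall. They were chosen by name, as the rows of the table of normalized read counts whose gene symbol was Icam1, Icam2, Vcam1, Sele, Selp, Selplg, Pecam1 or Madcam1. The choice by name found 7 of the 8 among 32545 gene rows, and Pecam1 was not analysed here. The tissue was sciatic nerve of outbred female Sprague Dawley rats (Envigo) aged 3 to 6 months, taken as whole nerve segments. PEG-fused peripheral nerve allografts (PEG-fused PNAs, n = 3) were donor nerve segments sewn into a cut host nerve with the full fusion protocol, in which polyethylene glycol (PEG) joins the cut axon ends. Negative control PNAs (NC PNAs, n = 3) had the same transplantation without PEG, and both kinds of graft were taken 14 days after the operation. Unoperated sciatic nerves (Unop nerves, n = 2) had no surgery and no graft. The 8 libraries had between 32472925 and 39959620 reads on genes.

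Leukocyte capture works in steps. Selectins on activated endothelium and platelets (Sele, Selp) bind glycans carried by leukocyte proteins such as PSGL-1 (Selplg) and slow the cells to a roll. Integrins on the leukocyte then bind immunoglobulin-type adhesion molecules on the endothelium (Icam1, Icam2, Vcam1, Madcam1) and hold the cell still, after which it crosses between or through endothelial cells. In nerve, as in other tissues, inflammatory cytokines acting through NF-kB and interferon regulatory factors raise the inducible members of this set, while Icam2 is present on resting endothelium.

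Endothelial markers were present in every library. Of 19 listed, 17 had enough counts to be tested, Cldn5 was listed at 0 in every library and Robo4 was under the minimum. The NC 1 and NC 3 libraries stood apart in skeletal muscle transcripts, with summed normalized read counts over 5 muscle genes of 414928 and 152150, against 2195 to 21794 in the other 6 libraries. T cell transcripts (7 genes) summed to 20210 to 37933 in the NC PNAs, 1751 to 4961 in the PEG-fused PNAs and 206 to 394 in the Unop nerves. PEG 2 was the lowest of the PEG-fused PNAs in this sum and in 5 of the 7 transcripts described here. In bulk nerve tissue, fewer cells of a type and less RNA per cell cannot be told apart.

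Transcripts of the adhesion molecules were for the most part lower in the PEG-fused than in the NC grafts. In the limma fit over all 8 libraries, 5 of the 7 measured members passed an adjusted p of 0.05 as lower in PEG-fused PNAs (Icam1, Icam2, Vcam1, Sele and Selplg) and none as higher, while 13.9% of the 16478 tested genes were called lower and 15.0% higher. The median log2 fold change of the 7 was -1.05, beside 0.0017 over all tested genes. Vcam1 and Icam1 had the greatest differences of the 7, with a mean in PEG-fused PNAs 0.241 and 0.347 times the NC mean. Every PEG-fused PNA lay below every NC PNA for 6 of the 7, which was so for 23.3% of tested genes, and Madcam1 overlapped.

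Icam1, the ligand of the leukocyte integrins LFA-1 and Mac-1, had normalized read counts of 2332, 2072 and 1946 in the PEG-fused PNAs, 5537, 7249 and 5512 in the NC PNAs, and 2134 and 1759 in the Unop nerves (ENSRNOG00000020679). The 3 NC PNAs were all high, and the PEG-fused PNAs and Unop nerves overlapped. The log2 fold change of PEG-fused against NC PNAs was -1.52 (SE 0.135, adjusted p = 0.000515). Against Unop nerves the NC PNAs were higher by 1.64 on the log2 scale (SE 0.151, adjusted p = 2.85e-05). PEG-fused PNAs differed from Unop nerves by 0.12 on the log2 scale, with a 95% interval of -0.22 to 0.47 (adjusted p = 0.508).

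Vcam1, the ligand of the integrin VLA-4 (Itga4 with Itgb1) carried by lymphocytes and monocytes, had counts of 1836, 1141 and 1145 in the PEG-fused PNAs, 5374, 6109 and 5595 in the NC PNAs, and 1632 and 1276 in the Unop nerves (ENSRNOG00000014333). As for Icam1, only the NC PNAs were high and the other groups overlapped. The log2 fold change of PEG-fused against NC PNAs was -2.09 (SE 0.189, adjusted p = 0.000537), and that of NC PNAs against Unop nerves was 1.98 (SE 0.211, adjusted p = 6.78e-05). For PEG-fused PNAs against Unop nerves it was -0.11, with a 95% interval of -0.59 to 0.38 (adjusted p = 0.684). The NC 2 library, which was low in muscle transcripts, held the highest Icam1 and Vcam1 counts of the 8. Without NC 1 and NC 3, the differences of PEG-fused from NC PNAs were -1.78 for Icam1 and -2.19 for Vcam1, and both passed the test (adjusted p = 0.00339 and 0.00664). In that fit NC 2 stood alone for its group and was taken to vary as the other groups did, and it was higher than the Unop nerves by 1.90 for Icam1 and 2.08 for Vcam1.

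The upstream sequences of these 2 inducible genes are shown because their levels varied together and because both are textbook targets of NF-kB. They are the 250 bases before the RefSeq start site in build GRCr8, 5′ to 3′ on the gene's strand, whereas the counts were made on Rnor_6.0. RefSeq promoters were matched for 4 of the 8 named members (Icam1, Vcam1, Sele and Madcam1). Icam1 is at chr8:27829595-27829844 on the plus strand, with GGAAATTCC (bases 33 to 41, counted from the 5′ end) and TATAAA (198 to 203) in capitals. Vcam1 is at chr2:206742784-206743033 on the minus strand, with matches to GGGNTTNCC (bases 143 to 151 and 158 to 166) and to the NF-kB consensus (158 to 167), which overlap, and 2 overlapping matches to TATAAA on opposite strands (189 to 194 and 191 to 196) in capitals.
Icam1: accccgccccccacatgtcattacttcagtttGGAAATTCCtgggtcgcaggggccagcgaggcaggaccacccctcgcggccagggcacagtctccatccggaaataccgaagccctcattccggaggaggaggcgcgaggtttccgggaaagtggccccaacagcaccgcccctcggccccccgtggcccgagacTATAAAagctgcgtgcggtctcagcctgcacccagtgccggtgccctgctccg
Vcam1: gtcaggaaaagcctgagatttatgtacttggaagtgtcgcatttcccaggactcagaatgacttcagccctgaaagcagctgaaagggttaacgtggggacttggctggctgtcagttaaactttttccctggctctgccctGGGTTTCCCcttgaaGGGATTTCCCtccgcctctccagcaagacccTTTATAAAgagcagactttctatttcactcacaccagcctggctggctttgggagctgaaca
Searched on both strands in the 33469 windows of this length, GGAAATTCC was in 0.287%, GGGNTTNCC in 4.04% and TATAAA in 12.9%. GGAAATTCC and GGGNTTNCC were chosen after these windows had been read. The NF-kB consensus, present in 3.54% of windows, matched Vcam1 at bases 158 to 167 and 2 stretches of Madcam1 (GGGNTTNCC matched the same 2 there), and no stretch of the Icam1 and Sele windows. TGANTCA (6.34% of windows) had no match in the 4, and GAAANNGAA (8.12%) matched Vcam1 alone, on the opposite strand at bases 206 to 214, left in lower case. A match is a description of letters, and binding was not measured here.

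Icam2, a ligand of LFA-1 that endothelium carries at rest, had counts of 1335, 1195 and 1211 in the PEG-fused PNAs, 1896, 1905 and 1793 in the NC PNAs, and 2138 and 1418 in the Unop nerves (ENSRNOG00000025143). The PEG-fused PNAs were the lowest group, and the NC PNAs lay between the 2 Unop nerves. The log2 fold change was -0.58 against NC PNAs (SE 0.142, adjusted p = 0.0179) and -0.48 against Unop nerves (SE 0.159, adjusted p = 0.0289), and 0.10 for NC PNAs against Unop nerves (95% interval -0.27 to 0.46, adjusted p = 0.607). The call against NC PNAs was lost without PEG 2 (adjusted p = 0.0663), without PEG 3 (0.0594) and without NC 1 and NC 3 together (0.0962). The call against Unop nerves was lost without PEG 2 (adjusted p = 0.0749), PEG 3 (0.0742) or Unop 1 (0.195), and without Unop 1 the NC PNAs were higher than the remaining Unop nerve by 0.39 (adjusted p = 0.0186).

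**Figure D1:**
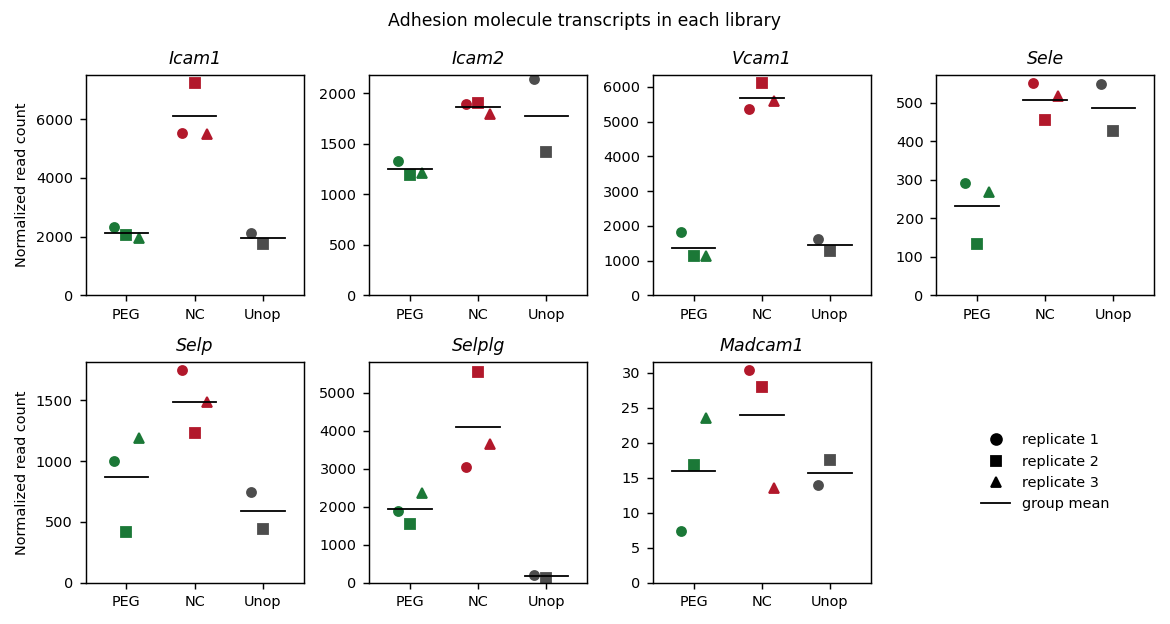
Normalized read counts (linear axes from 0) of the 7 adhesion molecule transcripts, 1 point per library and a line at each group mean, for PEG-fused PNAs (PEG, n = 3), NC PNAs (NC, n = 3) and Unop nerves (Unop, n = 2). Icam1 and Vcam1 were high in the NC PNAs alone, Sele was low in the PEG-fused PNAs alone, and Selplg was at 202 and 134 in the Unop nerves against 1557 or more in every graft.

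Sele, the endothelium-restricted E-selectin, had counts of 292, 134 and 269 in the PEG-fused PNAs, 552, 454 and 518 in the NC PNAs, and 547 and 428 in the Unop nerves (ENSRNOG00000002723). The PEG-fused PNAs were below every other library, and the NC PNAs and Unop nerves overlapped. The log2 fold change was -1.20 against NC PNAs (SE 0.281, adjusted p = 0.0151) and -1.14 against Unop nerves (SE 0.315, adjusted p = 0.0138). The difference of NC PNAs from Unop nerves was 0.066 (95% interval -0.66 to 0.79, adjusted p = 0.867), so this inducible selectin had no detected rise in the NC PNAs. PEG 2 was the lowest library, and without it the difference from NC PNAs was -0.85 (adjusted p = 0.0143). Without NC 1 and NC 3 it was -1.05 and no longer passed the test (adjusted p = 0.135), and the call against Unop nerves was lost without Unop 1 (adjusted p = 0.0942).

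Selp, the P-selectin stored in granules of endothelium and platelets, had counts of 1002, 416 and 1192 in the PEG-fused PNAs, 1748, 1230 and 1485 in the NC PNAs, and 749 and 438 in the Unop nerves (ENSRNOG00000002794). The PEG-fused PNAs varied most of the groups (coefficient of variation 46.5%), with PEG 2 below both Unop nerves and PEG 3 just under the lowest NC PNA. The log2 fold change of PEG-fused against NC PNAs was -0.89 (SE 0.383) and did not pass the test (adjusted p = 0.116). NC PNAs were higher than Unop nerves by 1.36 (SE 0.428, adjusted p = 0.0219), a call that was lost without NC 1 (adjusted p = 0.0533), without Unop 2 (0.162) and without NC 1 and NC 3 together (0.166). PEG-fused PNAs differed from Unop nerves by 0.47 (95% interval -0.51 to 1.45, adjusted p = 0.376), and without PEG 2 this became 0.93 and passed the test (adjusted p = 0.0229). Of 11 platelet markers, 6 were tested and 2 (Gp1bb and Gp5) were at 0 throughout. In PEG-fused against NC PNAs 1 was called higher (Pf4, 1.16, adjusted p = 0.00794) and 2 lower (Itga2b, -2.65, adjusted p = 0.00121, and Gp9, -1.01, adjusted p = 0.0440). Gp9 had few counts, with 4.6 to 5.6 in the PEG-fused and 9.6 to 11.8 in the NC PNAs. The summed count of the platelet markers was 4226 to 6087 in the PEG-fused PNAs, 2436 to 3436 in the NC PNAs and 1198 to 1636 in the Unop nerves. Pf4 made up most of it, with 4045 to 5880, 1965 to 2479, and 1152 and 615. The sum thus describes Pf4 and not the list, whose other called markers were lower in PEG-fused PNAs. The part of platelets in the Selp values was not tested.

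Selplg, whose product PSGL-1 is carried by leukocytes and is the main ligand of P-selectin, had counts of 1883, 1557 and 2371 in the PEG-fused PNAs, 3062, 5549 and 3659 in the NC PNAs, and 202 and 134 in the Unop nerves (ENSRNOG00000000699). The 3 groups did not overlap, with NC PNAs highest and Unop nerves lowest. PEG-fused PNAs were lower than NC PNAs by a log2 fold change of -1.05 (SE 0.254, adjusted p = 0.0172), a call lost without PEG 2 (adjusted p = 0.0675) but not without NC 1 and NC 3 (-1.54, adjusted p = 0.0147). Both kinds of graft were higher than Unop nerves, PEG-fused PNAs by 3.53 (SE 0.284, adjusted p = 2.09e-05) and NC PNAs by 4.58 (SE 0.284, adjusted p = 3.74e-06). Selplg moved with general leukocyte transcripts. The summed counts of Ptprc, Cd53, Laptm5 and Coro1a were 33470 to 44994 in the PEG-fused PNAs, 76726 to 111125 in the NC PNAs and 5003 to 7222 in the Unop nerves. Selplg was set against the mean log2 value of these 4 genes in the same library, a ratio chosen after its values were seen. On this scale Selplg differed between PEG-fused and NC PNAs by 0.15 with overlapping libraries. It exceeded its Unop level by 0.65 in PEG-fused and 0.50 in NC PNAs. The grafts also overlapped on this scale for Icam1 (-0.31), Sele (0.0018), Selp (0.31) and Madcam1 (0.59). Without overlap, Vcam1 was lower in PEG-fused than in NC PNAs (-0.88) and Icam2 was higher (0.63). The share of all tested genes without such overlap was not counted on this scale. The mean of the 4 leukocyte genes was itself lower in PEG-fused (12.9 to 13.4) than in NC PNAs (14.2 to 14.7). An unchanged transcript is thus higher in PEG-fused PNAs on this scale, and Icam2 per library was lower there (-0.58). For endothelial transcripts the leukocyte scale has no direct reading.

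Madcam1, the vascular addressin of gut and its lymphoid tissue, was at the edge of detection, with 8 to 34 reads per library (ENSRNOG00000008217). Its normalized read counts were 7.42, 16.8 and 23.5 in the PEG-fused PNAs, 30.4, 28.0 and 13.5 in the NC PNAs, and 14.0 and 17.5 in the Unop nerves. All groups overlapped. The log2 fold change of PEG-fused against NC PNAs was -0.62 with a 95% interval of -1.71 to 0.48 (adjusted p = 0.366), so no difference was detectable at this depth.

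Against Unop nerves, the members split. In NC PNAs, 4 of the 7 were called higher (Icam1, Vcam1, Selp and Selplg) and none lower, where 32.2% of tested genes were called higher and 32.3% lower. In PEG-fused PNAs, 1 was called higher (Selplg) and 2 lower (Icam2 and Sele), where 29.1% of tested genes were called higher and 28.6% lower. These counts share the Unop nerves. The order of the group means was NC, PEG and Unop for Icam1, Selp, Selplg and Madcam1, and NC, Unop and PEG for Icam2, Vcam1 and Sele. The neighbours PEG and Unop in this order did not differ past the test for Icam1, Vcam1, Selp and Madcam1, and neither did NC and Unop for Icam2 and Sele, or NC and PEG for Selp and Madcam1.

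**Figure D2:**
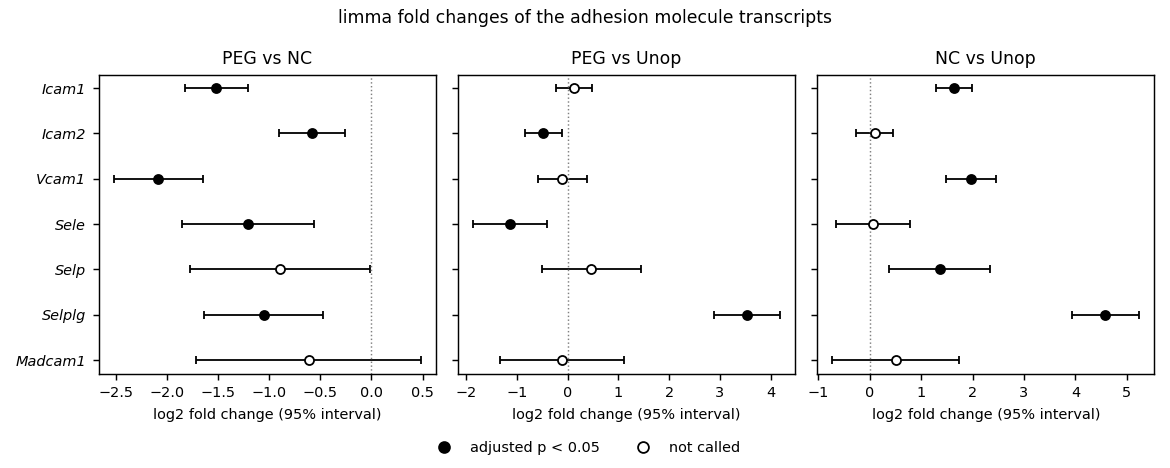
log2 fold changes (points) with 95% intervals (bars) from limma, in a panel for each pair of groups, with filled points at an adjusted p under 0.05. For PEG vs NC all 7 points lie below 0 and 5 are filled, and for PEG vs Unop the Icam1 and Vcam1 intervals cover 0.

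The endothelial transcripts did not follow the same pattern. Of the 17 tested endothelial markers, 1 was called lower in PEG-fused than in NC PNAs and 2 higher, with a median log2 fold change of 0.19, and against Unop nerves 9 were lower in PEG-fused PNAs (median -0.64) and 12 in NC PNAs (median -0.75). The members were therefore also expressed against these markers, as log2(count + 1) of the member minus the mean log2(count + 1) of the 17 markers in the same library. By this measure Icam1 was 0.83 ± 0.190 (SD, n = 3) in the PEG-fused PNAs, 2.54 ± 0.444 (n = 3) in the NC PNAs and 0.032 ± 0.061 (n = 2) in Unop nerves. Vcam1 was 0.17 ± 0.298, 2.45 ± 0.304 and -0.39 ± 0.115 in the same order. Against the markers, unlike per library, the PEG-fused PNAs were above both Unop nerves for Icam1, Vcam1 and Selp (for Selp by a mean of 1.14).

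The differences of PEG-fused from NC PNAs on this scale were -1.71 for Icam1, -0.77 for Icam2, -2.27 for Vcam1, -1.39 for Sele, -1.08 for Selp and -1.24 for Selplg, with no overlap between the groups. The share of all tested genes without such overlap was not counted on this scale. Madcam1 overlapped, with a difference of -0.80. Each of the 6 had an exact two-sided permutation p of 0.1 (0.117 after Benjamini-Hochberg adjustment over the 7), which is the smallest that 3 against 3 allows. Against Unop nerves, where 0.2 is the smallest p that an exact permutation test of 3 against 2 allows, Sele in PEG-fused PNAs was lower by -0.46 and in NC PNAs higher by 0.93, with no overlap in either case. Icam2 in NC PNAs, not called against Unop nerves per library (0.10), was higher by 0.96 against the endothelial markers. Sele in NC PNAs likewise differed from Unop nerves by only 0.066 per library. On this scale these NC differences of Icam2 and Sele lie mostly in the lower marker mean of the NC PNAs. Selplg is a leukocyte transcript, for which the endothelial scale has no direct reading.

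**Figure D3:**
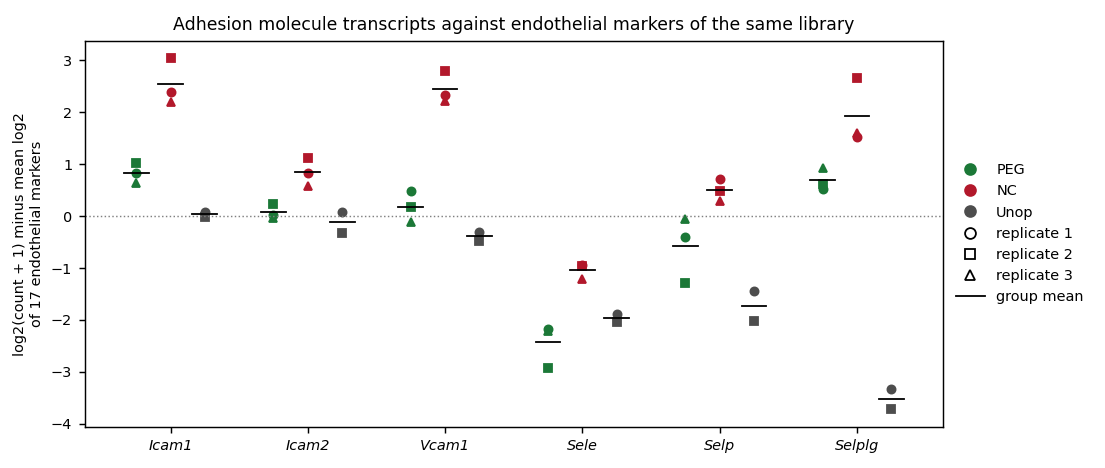
Difference of log2(count + 1) of each transcript from the mean log2(count + 1) of 17 endothelial markers in the same library, 1 point per library, with lines at the group means, for PEG, NC and Unop. The NC points lie above the PEG points for all 6 transcripts shown, and for Icam1, Vcam1, Selp and Selplg the PEG points lie between those of NC and Unop.

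Among the leukocyte partners, 4 of 8 tested integrin transcripts were called lower in PEG-fused than in NC PNAs and 1 higher, with a median log2 fold change of -0.76. Itgal, the alpha chain of LFA-1, was lower by a log2 fold change of -1.52 (SE 0.183, adjusted p = 0.00121), whereas its partner Itgb2, shared by all beta-2 integrins, had 0.040 (95% interval -0.59 to 0.67, adjusted p = 0.932). Itgam, the alpha chain of Mac-1 on myeloid cells, had -0.37 (95% interval -0.84 to 0.10, adjusted p = 0.214). Whether the lymphocyte-rich Itgal and the myeloid Itgam, both receptors of Icam1, differed from each other in this respect was not tested.

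Itga4, the alpha chain of both the Vcam1 and the Madcam1 receptors, had counts of 689, 702 and 843 in PEG-fused PNAs, 1609, 1641 and 1727 in NC PNAs, and 137 and 165 in Unop nerves, a log2 fold change between the grafts of -1.16 (adjusted p = 0.000667). Itgb7, its partner for Madcam1, was also lower (-1.46, adjusted p = 0.00429), and Itgb1, its partner for Vcam1 and a chain of many matrix receptors, was higher (0.51, adjusted p = 0.0185). Itgae, the partner of Itgb7 in binding E-cadherin, was lower by -1.26 (adjusted p = 0.0147). Against Unop nerves, 7 of the 8 were higher in PEG-fused PNAs, with Itgae not called.

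Of the carriers of selectin ligands and the enzymes that build them, 3 of 15 tested were lower in PEG-fused than in NC PNAs and 2 higher, a median of -0.013. Spn (CD43), a mucin of leukocytes that E-selectin can bind, was lower by a log2 fold change of -1.89 (adjusted p = 0.00212), and St3gal6, a sialyltransferase, by -1.05 (adjusted p = 0.00602). Cd34 and Podxl2, sialomucins that can carry selectin ligands, were higher by 0.71 (adjusted p = 0.0144) and 0.94 (adjusted p = 0.0101). Of 11 tested molecules of transmigration and junctions, 1 was lower and 2 higher (median 0.27). These were Icam5 (telencephalin), the ICAM family member best known in neurons, at -1.09 (adjusted p = 0.0354), Jam3, a junctional adhesion molecule, at 0.89 (adjusted p = 0.0015), and Mcam (CD146) of vessels and pericytes, at 0.69 (adjusted p = 0.00364).

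The inducers of endothelial adhesion molecules and their receptors held 10 tested genes of 14, of which 5 were lower in PEG-fused than in NC PNAs and none higher (median -0.75). The cytokines Lta, Ifng and Il1b differed most, while Il1a (-1.12) did not pass the test (adjusted p = 0.150). Tnf, Ltb, Il4 and Il13 were under the minimum and not tested, with Tnf at 0 in every library but NC 1 (0.89). Lta, the lymphotoxin alpha of T cells, had counts of 14.8, 3.7 and 7.5 in PEG-fused PNAs, 367, 342 and 146 in NC PNAs, and 1.1 and 2.5 in Unop nerves (log2 fold change between the grafts -4.94, adjusted p = 0.000897). Ifng and Il1b were lower by log2 fold changes of -5.04 (adjusted p = 0.00107) and -2.89 (adjusted p = 0.00148), and the TNF receptor Tnfrsf1b by -0.94 (adjusted p = 0.00124). Against Unop nerves all 10 cytokines and receptors were called higher in the PEG-fused PNAs, with a median of 1.47, in the comparison in which Icam1 and Vcam1 did not pass the test. Of these, Lta and Ifng had few counts in both groups (Ifng 12.0, 1.9 and 3.8 in PEG-fused PNAs, 1.1 and 0 in Unop nerves).

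Of the 7 transcripts of NF-kB subunits, their inhibitor and IRF1, 6 were lower in PEG-fused than in NC PNAs and none higher (median -1.39). Irf1, an interferon-induced activator, had counts of 2941, 2015 and 2189 in PEG-fused PNAs, 20631, 18723 and 16665 in NC PNAs, and 1378 and 1099 in Unop nerves (log2 fold change between the grafts -2.98, adjusted p = 0.00019). Relb, Nfkbia and Nfkb2 were lower by log2 fold changes of -1.57 (adjusted p = 0.000644), -1.51 (adjusted p = 0.000624) and -1.39 (adjusted p = 0.000623). In PEG-fused PNAs against Unop nerves, 3 of the 7 were called higher and 2 lower. Among the higher were Irf1 (0.93, adjusted p = 0.00228) and Nfkb2 (0.64, adjusted p = 0.00583). Nfkbia, itself a target of NF-kB, was among the lower (-0.95, adjusted p = 0.00135), and Relb differed by 0.18 without passing the test (adjusted p = 0.408).

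**Figure D4:**
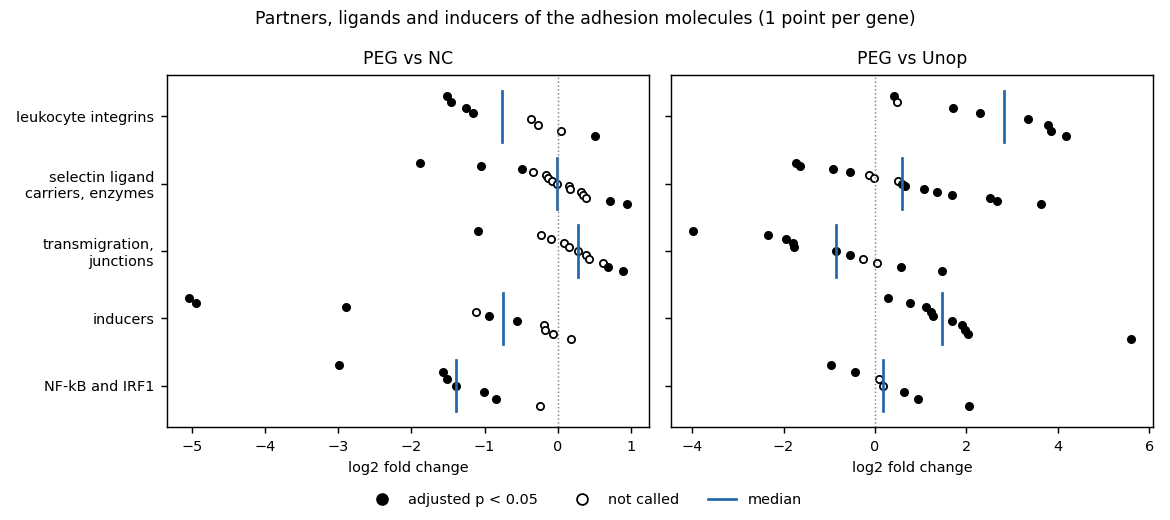
log2 fold changes of PEG vs NC and PEG vs Unop for each tested gene of 5 lists of partners, ligands and inducers, with filled points at an adjusted p under 0.05 and a blue line at each list's median. For PEG vs NC the medians of the integrin, inducer and NF-kB lists are -0.76, -0.75 and -1.39 and those of the selectin ligand and transmigration lists -0.013 and 0.27, while for PEG vs Unop all 10 tested inducers and receptors lie above 0.

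Across the 8 libraries, which fall into 3 groups, Icam1 and Vcam1 had the closest pattern of any pair of members (Pearson r = 0.98 of log2 counts), and Icam2 with Selplg had r = -0.014. These values describe group differences as well as differences between libraries and are given with no test. Among 12505 other genes with a mean of at least 100 normalized read counts, those most like Icam1 were LOC103689965, Adprm and Relb (r = 0.994 to 0.996), and those most like Vcam1 were Capn13, Nuak2 and Adprm (r = 0.987 to 0.993). Sele was most like Ptpn4, Slc27a6 and Thap3 (r = 0.967 to 0.974), and Icam2 most like Cd302, Clic2 and Dcst2 (r = 0.961 to 0.971). Selp was most like Ptges, Qrsl1 and Cd163 (r = 0.930 to 0.950). Selplg was most like Laptm5, Plekho1 and Vegfa (r = 0.998 to 0.999), the first of which is on the list of general leukocyte genes, and Madcam1 had no gene above r = 0.902.

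The cell type markers around these members also differed between the grafts. In PEG-fused against NC PNAs, all 7 T cell markers, 6 of 7 macrophage markers, 3 of 3 B cell markers, 3 of 5 tested neutrophil markers and 3 of 4 general leukocyte markers were lower, and 5 of 6 pericyte, 3 of 5 fibroblast and 3 of 6 Schwann cell markers were higher. Summed macrophage transcripts were 83930 to 101715 in the PEG-fused PNAs, 132016 to 152794 in the NC PNAs and 15221 to 25335 in the Unop nerves. Icam1, Vcam1 and Selp can also be made by leukocytes, stromal cells or platelets, and the part of these cells in the values was not tested.

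**Figure D5:**
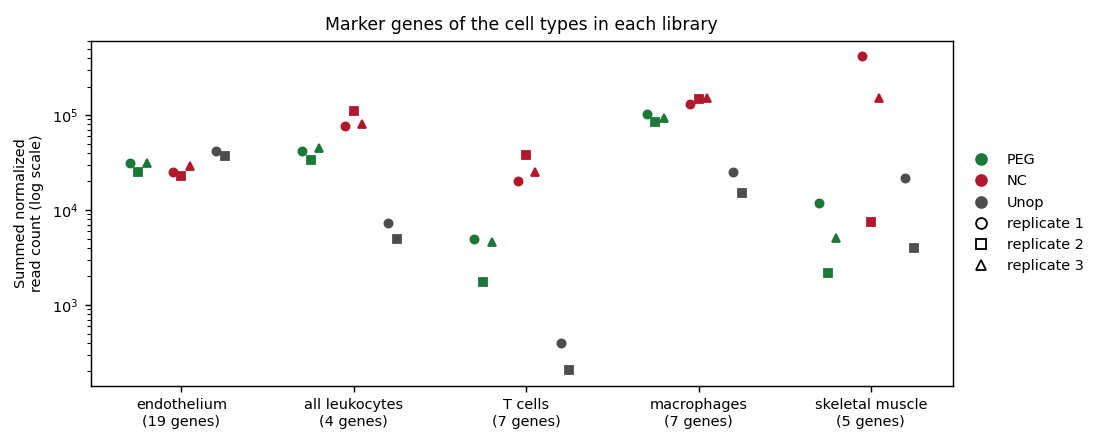
Summed normalized read counts (log scale) of marker genes of 5 cell types, 1 point per library, for PEG, NC and Unop. The endothelial sum spans 23000 to 41716 over the 8 libraries, the T cell sum 206 to 37933, and the muscle sum is 414928 and 152150 in NC 1 and NC 3 and at most 21794 elsewhere.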

How the data were processed

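Total RNA of the 8 nerve segments was sequenced as stranded poly(A) libraries. Per the labels and the study's methods, the authors aligned the reads with TopHat2 to Rnor_6.0, counted reads per gene with HTSeq and divided the counts by DESeq2 size factors. The deposited normalized count is thus a signal per gene and library, not corrected for length, so levels were not compared between genes. Versions and the strand setting of the counting are not given in the sources used here. Deposited columns of the authors' own comparisons (fold changes and p-values) were not used. Dividing by the smallest step of each library gave whole reads for 100.0% of values (within 0.001), with size factors of 0.800 to 1.12.

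The main test was limma (3.58.1, trend) on log2(count + 1), with 1 mean per group over all 8 libraries and Benjamini-Hochberg adjustment over the 16478 genes with at least 10 normalized read counts in at least 2 libraries. Calls were made at an adjusted p of 0.05. Fold changes on this scale understate those of low genes. On simulated counts for PEG vs NC over 16478 genes, 95 of 100 genes changed 2-fold were recovered, and 100 of 100 changed 4-fold. The simulation gave every gene the same dispersion and changed only genes well above the filter, far fewer than were called here. Among the members the coefficient of variation in the PEG-fused PNAs ran from 6.14% (Icam2) to 50.7% (Madcam1). The recovered shares are therefore not the power of the test for the members. Alternatives were TMM scaling, edgeR (4.0.16) and DESeq2 (1.42.0) on the recovered reads, other filters (none, or 50 counts) and pseudocounts (8 and 0.5), 2 groups only, a robust fit, a replicate block and each library left out. A fit without NC 1 and NC 3 was added after the data were seen. The ratio to Pecam1 that was planned was replaced by that to the endothelial markers. Members, gene lists and tests were chosen with earlier results of these data known. All members were named, with the partner chains, up to 4 called genes of each list with the greatest PEG vs NC difference, and the 3 genes most like each member. Of the other called genes of these lists, Nfkb1, Rel, Ifngr2 and Chst2 were only counted. The integrin list was planned with a further gene, which is not reported here. The limma p-values weigh a difference of group means against the spread of these samples within groups, pooled over the groups and moderated over all tested genes.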

Additional observations from a re-analysis of the deposited data

How the results depend on the processing

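In PEG vs NC, 5 members were called lower under TMM scaling, edgeR, DESeq2, both pseudocounts, both filters, 2 groups only and the robust fit. Leaving out 1 library in turn gave 3 to 5 members and 2749 to 4975 of all tested genes (4763 with all libraries), with 2749 without PEG 2 and 3132 without PEG 3. Without NC 1 and NC 3, 3 members were called (Icam1, Vcam1 and Selplg). This count was not set against the calls among all tested genes in the same fit. Icam1 and Vcam1 kept their PEG vs NC calls in all 19 alternatives, with log2 fold changes of -1.78 to -1.39 and -2.31 to -1.97. In PEG vs Unop, leaving out 1 library gave 1 to 3 members, with 1 without Unop 1, while 7927 to 9682 of the 16478 tested genes were called (7927 without Unop 1). Some differences that did not pass the test changed sign. Leaving out 1 library gave Icam1 -0.016 to 0.26, Vcam1 -0.34 to 0.070 and Madcam1 -0.44 to 0.33 in PEG vs Unop, and Icam2 -0.20 to 0.39 and Sele -0.11 to 0.24 in NC vs Unop. Madcam1 in PEG vs Unop was 0.035 in edgeR and 0.018 in DESeq2. Sele in NC vs Unop was -0.092 without NC 1 and NC 3. The cause of these changes was not tested.

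Same-numbered libraries deviated together with r of -0.05 to 0.157 (7 pairs), against -0.159 to 0.0976 for other pairs (14). Apart from the lowest, every same-numbered pair had r of at least 0.108, above the highest of the other pairs. The deviations of the Unop libraries mirror each other, so the pairs are not independent. Whether the numbers pair the samples was not tested, and the main fit did not use them. With the replicate number as a block, 6 members were called in PEG vs NC, Selp being added (log2 fold change -0.89, adjusted p = 0.0338). This count was not set against the calls among all tested genes under the block, so a general rise in calls is not excluded. Under the block, Sele in NC vs Unop was -0.017. Depth limits Madcam1 alone among the 7 members, which the filter of 50 counts left out.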

Other observations

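Ratios between members within a library need no scaling between libraries. These were chosen after the values were seen and carry no test. The ratio of Sele to Selp counts was 0.731 and 0.977 in the Unop nerves, 0.226 to 0.321 in the PEG-fused PNAs and 0.316 to 0.369 in the NC PNAs, so both kinds of graft lay below the unoperated nerves and overlapped each other. The ratio of Icam1 to Vcam1 was 1.27 to 1.81 in the PEG-fused PNAs, 0.985 to 1.19 in the NC PNAs, and 1.31 and 1.38 in the Unop nerves. The ratio of Icam1 to Icam2, both ligands of LFA-1, was 1.61 to 1.75 in the PEG-fused PNAs, 2.92 to 3.80 in the NC PNAs, and 0.998 and 1.24 in the Unop nerves, with no overlap between the 3 groups. For Vcam1 to Icam2 the PEG-fused PNAs (0.946 to 1.38) also lay above the Unop nerves (0.764 and 0.899) and below the NC PNAs (2.83 to 3.21).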
